A study of Mus musculus with 6 samples.

Results

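The 3 brains described here came from mouse embryos at day E16.5 that were SNORD115/116 KO, and each was set against wild type (WT) brain of the same stage. They are 3 of the 6 samples of the series. The other 3 are adult SNORD115 KO brains, used below for the only comparison with replicates on both sides. In the files used here WT was given only as a mean and SD per site, calculated by the authors over 3 brains per genotype as the legend states, so that no WT brain entered as a sample. The rule took every ribose methylation site listed by the authors, 40 in 18S (SSU), 66 in 28S (LSU) and 2 in 5.8S rRNA, out of 6758 rRNA positions with read counts. Site names carry the human rRNA position, and the mouse position is given where a site is described. The double deletion line is only named in the study, with no account of how it was made. In the related Snord115 line the deletion was on the paternal allele, from which these genes are expressed. A legend calls the brains adult, whereas the labels and the results text say E16.5. Since the files hold rRNA positions only, neither the loss of Snord115 and Snord116 nor the cell types of the brain could be checked in these libraries.

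Box C/D small nucleolar RNAs (SNORDs) carry an antisense element just upstream of a D or D' box (CTGA), which pairs with rRNA and places the methyltransferase fibrillarin on the nucleotide paired to the fifth base before the box. Most rRNA ribose methylations are guided in this way by SNORDs lodged in introns of protein-coding or long non-coding host genes. Snord115 and Snord116 are tandem arrays in the imprinted Snhg14 transcription unit of chromosome 7. Both are regarded as orphans with respect to rRNA, and the Snord115 element is known for its complementarity to the serotonin 2C receptor pre-mRNA. RiboMeth-seq reads the modification from alkaline cleavage: a 2'-O-methyl group protects the bond that follows the nucleotide, so that fewer fragments start or end there. The methylated fraction is therefore 1 when no read ends fall at the site and 0 when they are as frequent as at its neighbours.

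The guide elements of the deleted arrays were compared with the rRNA first, because they show which listed nucleotides they could pair with. Copies that hold the complement of a Northern probe of the study were compared with the whole of the rRNA. All other snoRNAs, also those of Snhg14, were compared with the listed sites only. The mm10 annotation (GENCODE vM21) held 99 copies that contain the complement of the Snord115 Northern probe, and 49 for Snord116, all on chromosome 7 within Snhg14. The Snord115 probe spans the guide element and its box, so that all copies chosen by it share that element by selection. At a minimum of 9 pairs upstream of CTGA with at most 1 G-U pair, and the site opposite the fifth base before the box, the Snord115 element met 2 of the 6758 rRNA positions (0.0296%). Both are listed adenosines, LSU-A4560 and SSU-A159. Snord116 met 1 position (0.0148%), a guanosine at 2479 of mouse 28S rRNA that is not a listed site and whose fraction was 0 in all 3 KO brains. The sequences below are given 5' to 3', with the box in capitals in the snoRNA (GENCODE) and the listed nucleotide in capitals in the rRNA (deposited tables).
Snord115 element (99 of 99 copies): taggattacgCTGA
LSU-A4560, 28S positions 4240 to 4248: guaAuccug
SSU-A159, 18S positions 156 to 164: guaAuucua
Snord45c element (intron of Rabggtb, chr3:153912125-153912204, minus strand): ttagctctagaattactCTGA
SSU-A159 opposite Snord45c, 18S positions 155 to 171: gguaAuucuagagcuaa

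SSU-A159 was singled out because of this match, after its values had been seen. Its fraction was 0.974, 0.972 and 0.964 in the KO brains, against a WT mean of 0.966 ± 0.0221 (authors' mean and SD, as for WT throughout). The KO brains lay on both sides of the WT mean, and the KO mean exceeded it by 0.00335. This adenosine is also matched over 17 pairs by Snord45c, a guide outside the deleted region. Further snoRNAs of Snhg14 that lack the whole probe sequence matched it too. Of these, Gm22391, Gm24100, Gm24137 and Gm25874 did so over 10 pairs, as they did at LSU-A4560.

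LSU-A4560 (mouse 28S position 4243) had fractions of 0.712, 0.755 and 0.244 in the KO brains, against a WT mean of 0.628 ± 0.187. Brain 3 was low and brains 1 and 2 were above the WT mean, so that KO minus WT was -0.0578 with all brains and 0.105 without brain 3. From 5' ends alone the KO brains gave 0.863, 0.851 and 0.723, and from 3' ends alone 0.420, 0.556 and 0. Brain 3 was the lowest by either kind of end, and by far more in its 3' ends. Besides the 99 copies, 27 further snoRNAs of Snhg14 matched this site, and no snoRNA outside Snhg14 did under the rule used. The 27 lack the whole probe sequence but lie between positions 59342226 and 59610211 of chromosome 7, most of them interspersed with the 99 copies. The deletion of the related Snord115 line covers that stretch. Whether the double deletion does could not be checked here. A match describes the letters only, and says nothing about whether the element acts there.

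Over all sites, the authors' mean scores of the E16.5 KO brains followed the WT profile closely. The median site score was 0.941 in KO and 0.942 in WT, and the median size of the difference was 0.0134. At 46 sites the difference was under 0.01, and at 82 it was no more than the larger of the authors' SDs. Across sites the authors' KO and WT means correlated with r = 0.969. This describes sites that share libraries and a wide range of levels, and the KO means include adjusted ones, as described further on. The deposited fractions of KO brains 1, 2 and 3 correlated less with the WT means, with r = 0.663, 0.843 and 0.908. By the authors' means, 72 sites were at 0.9 or more in KO and 84 in WT.

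Where scores did differ by more, KO was the lower one. KO was lower than WT at 70 sites (64.8%) and higher at 38. All 16 differences over 0.05 (14.8% of sites) were lower in KO. The largest in the other direction was 0.0452, at SSU-A668, where the authors' KO mean is an adjusted one, as described further on. No test was run against the WT mean, since the individual WT brains were not analysed here. The counts so far use the authors' KO means, and those by brain use the deposited fractions, without the authors' adjustments. By these fractions all 3 KO brains lay below the WT mean at 26 sites (24.1%) and above it at 21 (19.4%), while at 61 the brains lay on both sides. A difference between the authors' means of more than 2 times the larger SD was seen at 5 sites (4.63%), 4 of them lower in KO.

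**Figure D1:**
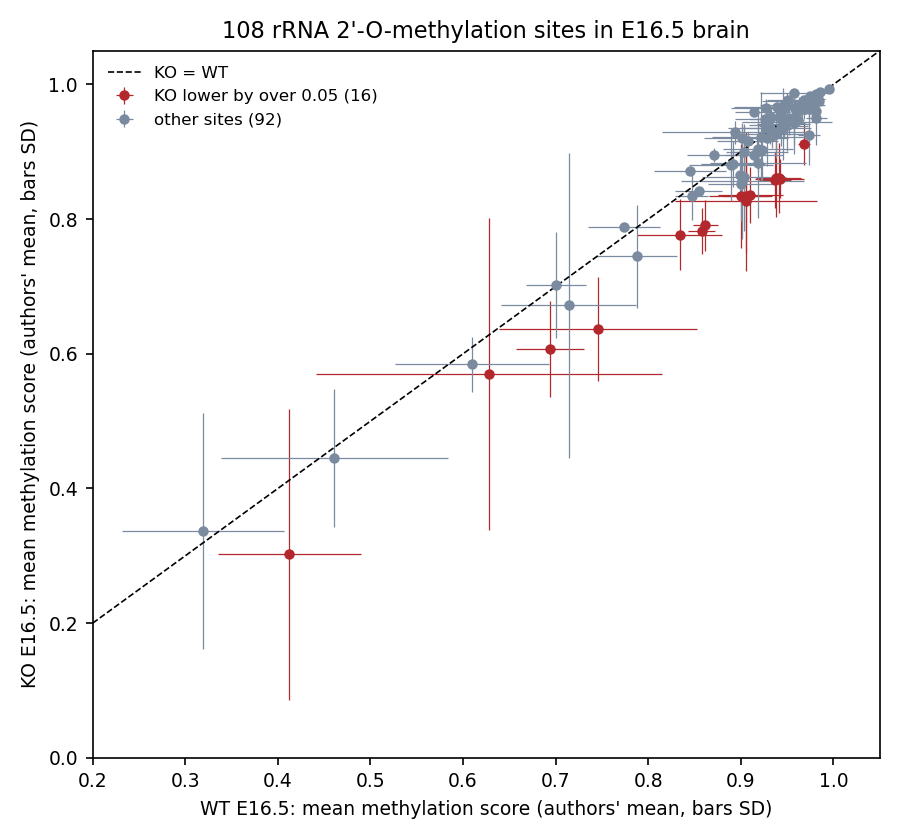
Mean methylation score of the listed sites in E16.5 KO brain (vertical axis) against E16.5 WT brain (horizontal axis), with the authors' SDs as bars and equality as a dashed line. The 16 sites in red lie more than 0.05 below equality, and no site lies more than 0.05 above it.

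The sites that were only partly methylated in WT were so in KO too. All 9 sites with a WT mean under 0.75 were under 0.75 in KO, where LSU-C4032 joined them at 0.745 (WT 0.788). The lowest were LSU-G4593, SSU-G436 (mouse 18S position 438) and SSU-C1272 (mouse 18S position 1274). SSU-G436 had 0.563, 0.136 and 0.313 in the KO brains, against a WT mean of 0.319 ± 0.0877. SSU-C1272 had 0.351, 0.587 and 0.397 in the KO brains, against 0.461 ± 0.123 in WT. At both, the WT mean fell inside the range of the KO brains.

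A further 3 low sites also had WT means inside the range of the KO brains. LSU-A3846 (mouse 28S position 3526) averaged 0.584 ± 0.0505 in KO (SD, n = 3) and 0.610 ± 0.0833 in WT. LSU-G3923 (position 3603), matched by Snord111 of the Sf3b3 gene, had 0.850, 0.353 and 0.814 in the KO brains against 0.714 ± 0.0733 in WT. Here brain 2 alone was low, and brains 1 and 3 lay above the WT mean. LSU-C4032 (position 3707) had 0.788, 0.808 and 0.638 in the KO brains against 0.788 ± 0.0438 in WT, with brain 3 alone below the WT mean. The mean of the 3 deposited fractions was at least 0.75 at 95 sites, and 86 sites (79.6%) reached 0.75 in every brain. The highest level was that of LSU-G2351, named here for that after its values were seen, with 0.995, 0.995 and 0.992 in the KO brains and 0.995 ± 0.00243 in WT.

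Each of SSU-A576, 5.8S-U14 and LSU-C1868 was followed by name. SSU-A576 (mouse 18S position 578) is matched over 13 pairs by Snord93 of 2700038G22Rik on chromosome 5, and by Mir3096 of AI506816, annotated with the identical element. The pairing is shown because this site differs most between KO and WT in the adult brains of the series.
Snord93 element (chr5:23852210-23852280, plus strand): gttaaaggatttacCTGA
SSU-A576, 18S positions 575 to 587: uaaAuccuuuaac
SSU-A576 had fractions of 0.898, 0.925 and 0.925 in the E16.5 KO brains, against a WT mean of 0.907 ± 0.0327. Brain 1 lay below the WT mean and the others above it. 5.8S-U14 (position 14 of 5.8S) had 0.619, 0.808 and 0.680 in the KO brains, against 0.700 ± 0.0324 in WT, again on both sides. Too few 3' ends were expected at 5.8S-U14 for these to be scored, and its values rest on 5' ends.

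LSU-C1868 (mouse 28S position 1684) had the next largest difference after LSU-G4593, at -0.109. The KO brains had 0.738, 0.550 and 0.622, against a WT mean of 0.746 ± 0.107, so that all 3 were below it, brain 1 by less than 0.01. Without brain 2 the difference was -0.0655. The difference was about the size of the WT SD. The kinds of read ends disagreed in every brain: 5' ends gave 0.933, 0.959 and 0.927, and 3' ends 0.694, 0.458 and 0.541. On 5' ends alone the KO mean was 0.194 above the authors' WT mean. Which kinds of ends that WT mean rests on could not be checked here. Gm25744, a snoRNA of 1110038B12Rik on chromosome 17, matched the site over 9 pairs.

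The sites with the largest KO differences are matched by guides from many hosts, and 7 of these pairings are given because the sites carry the lower scores. Of all listed sites, 78 had a match outside Snhg14.
LSU-G4593, Snord78 (Gas5, chr1:161036984-161037049): atcaaatgtctgagCTGA with ucaGacauuuggu
LSU-G4020, Gm25091 (Rpl21, chr5:146834834-146834904): atttcaccggctCTGA with gccGgugaaau
5.8S-G75, Snord96a (Rack1, chr11:48802032-48802112): tgtcctgcaattCTGA with aauuGcaggaca
SSU-U1442, Snord61 (Rbmx, chrX:57391449-57391519): tcctctaagaagttCTGA with aacuUcuuagaggg
SSU-G644, Gm24016 (Rps20, chr4:3835079-3835146): tatacgctattCTGA with aauaGcguaua
LSU-U3904, Snord52 (1110038B12Rik, chr17:34950952-34951017): cagactagagtctCTGA with gacUcuagucug
SSU-G1447, Gm25970 (Prpf39, chr12:65056573-65056658): gtccctctaaaCTGA with uuaGagggac

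LSU-G4593 (mouse 28S position 4276) had the largest difference, -0.110. Its fractions were 0.498, 0 and 0.408 in the KO brains, against 0.412 ± 0.0776 in WT. Brain 2, floored at 0, set the direction: without it KO minus WT was 0.0405. From 5' ends the brains were alike, at 0.545, 0.561 and 0.593.

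LSU-G4020 (position 3695) and 5.8S-G75 (position 75) were lower in every KO brain. LSU-G4020 had 0.669, 0.644 and 0.508 in KO, against 0.694 ± 0.0369 in WT, and its difference of -0.0869 was -0.0373 without brain 3 and -0.00831 with 2 neighbours on each side. 5.8S-G75 had 0.831, 0.8997 and 0.848 in KO, against 0.942 ± 0.0263 in WT, a difference of -0.0821 that exceeded 2 times the larger SD. Each depended on the kind of end. LSU-G4020 was below WT on 5' ends (KO mean 0.493) and above it on 3' ends (0.826). 5.8S-G75 was 0.00259 above WT on 5' ends and below it on 3' ends (KO mean 0.837).

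The neighbouring pair SSU-U1442 and SSU-G1447 (mouse 18S positions 1444 and 1449) was also lower in every KO brain. SSU-U1442 had 0.797, 0.923 and 0.862 in KO, against 0.941 ± 0.0244 in WT, while on 5' ends alone KO was 0.00767 above WT. SSU-G1447 had 0.787, 0.739 and 0.825 in KO, against 0.858 ± 0.0143 in WT, and its difference of -0.0748 was over 2 times the larger SD, but not with SDs over n - 1. On 5' ends alone it was -0.0137. SSU-G644 (position 646) had 0.800, 0.894 and 0.880 in KO, against 0.937 ± 0.0170 in WT. Both kinds of ends put KO below WT at SSU-G644, with KO means of 0.859 from 5' ends and 0.844 from 3' ends, and so they did at 6 of the 16 sites.

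Some of the next sites were less uniform among brains or rested on adjusted means. SSU-C1391 (position 1393) had 0.780, 0.969 and 0.731 in KO, against 0.905 ± 0.0766 in WT, with brain 2 above the WT mean. LSU-U3904 (position 3584) had 0.784, 0.680 and 0.744 in KO, against 0.938 ± 0.0109 in WT, yet the authors' table gives 0.860 for KO, as described further on. LSU-C3820 (position 3500) had 0.849, 0.878 and 0.780 in KO against 0.910 ± 0.0353 in WT. On 5' ends alone the LSU-C3820 fractions were 0.994, 1 and 0.976. The remaining 5 sites lower by over 0.05 ranged from -0.0709 at SSU-U172 to -0.0567 at LSU-G3606, with LSU-U4276, LSU-G4588 and LSU-G3771 between them. Over the 16 sites, all 3 KO brains were below WT at 11.

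**Figure D2:**
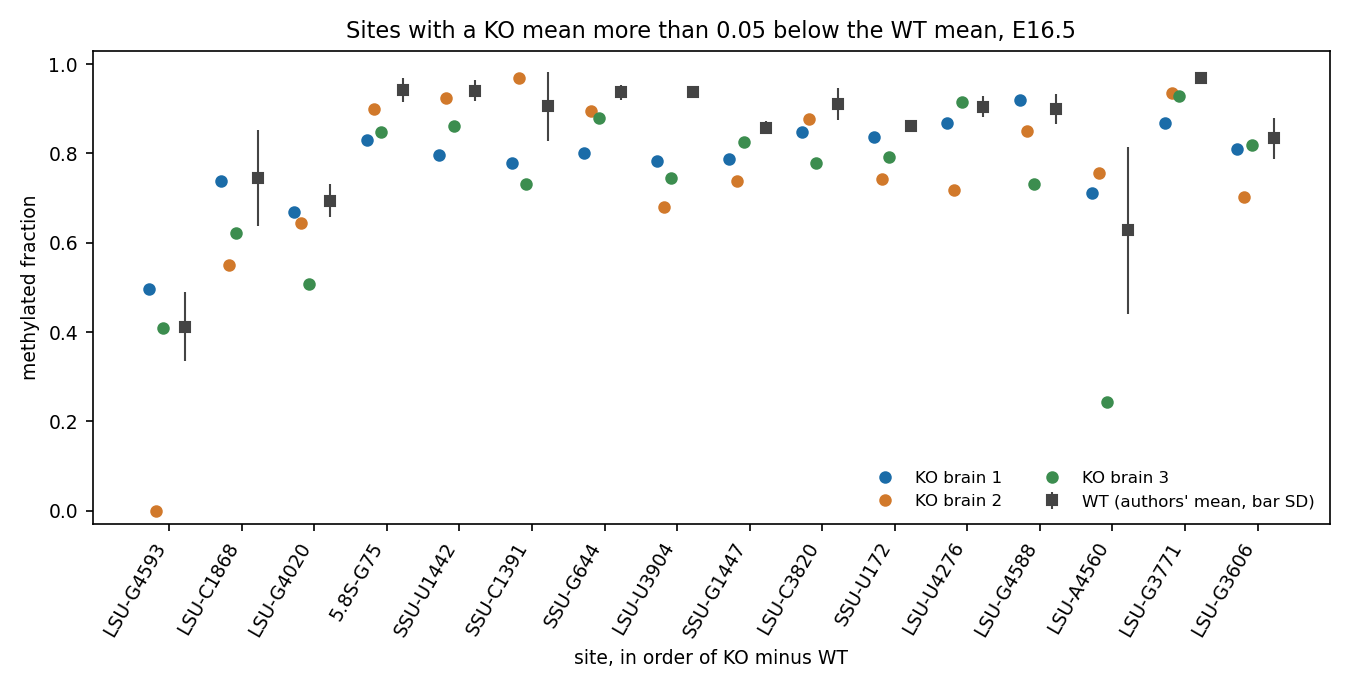
Methylated fraction (vertical axis) of each E16.5 KO brain (circles) and WT mean with the authors' SD (squares) at the 16 sites whose KO mean was more than 0.05 below WT, in order of the difference. Brain 2 at LSU-G4593 and brain 3 at LSU-A4560 stand far from the other brains, and WT lies above all KO brains at 11 of the sites.

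Gas5, a long non-coding host gene of chromosome 1, carries guides for 6 of the sites by the match used, and their differences ran both ways. KO was lower at 3 of them and higher at 3, with a median difference of 0.00132 beside -0.00605 over all sites. LSU-G4593 and LSU-C3820 have been described. SSU-A166 (position 166) had 0.975, 0.978 and 0.971 in KO against 0.984 ± 0.00257 in WT, a difference of -0.00929.

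The other Gas5-guided sites were at or above WT. LSU-A391 (mouse position 400) had 0.988, 0.983 and 0.989 in KO against 0.957 ± 0.0359 in WT. LSU-A3809 (position 3489) had 0.980, 0.948 and 0.967 in KO against 0.927 ± 0.0380 in WT. Both were above the WT mean in every KO brain, by less than the WT SD at LSU-A391 and by about that SD at LSU-A3809. LSU-G1612 (position 1439) had 0.914, 0.949 and 0.957 in KO against 0.928 ± 0.0190 in WT, with brain 1 below the WT mean.

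By rRNA, KO was lower at 26 of 40 sites of 18S (median difference -0.00637), 43 of 66 of 28S (median -0.00525) and 1 of 2 of 5.8S. By level, 4 of the 9 sites with a WT mean under 0.75 were lower by over 0.05, beside 8 of the 84 with a WT mean of at least 0.9. The sites with low WT means also spread more, with a median SD between KO brains of 0.125, beside 0.0168 for those of at least 0.9. By methylated base, the median difference was -0.000864 for the 33 adenosines, -0.0133 for the 23 cytidines, -0.00743 for the 32 guanosines and -0.00690 for the 20 uridines.

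The nucleotide that follows the site went with the direction of the difference. KO was lower at 21 of 21 sites followed by cytidine (median -0.0209) and at 14 of 18 followed by adenosine (median -0.0129). It was lower at 21 of 42 sites followed by guanosine (median 0.000407) and at 14 of 27 followed by uridine (median -0.000633). Taken as 2 sets, 89.7% of the 39 sites before cytidine or adenosine and 50.7% of the 69 others were lower in KO, beside 64.8% of all. In the adult SNORD115 KO, KO was lower than WT at 11 of 21 sites before cytidine and 16 of 18 before adenosine. The adult counts were 29 of 42 before guanosine and 4 of 27 before uridine. This grouping was described without a test.

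**Figure D3:**
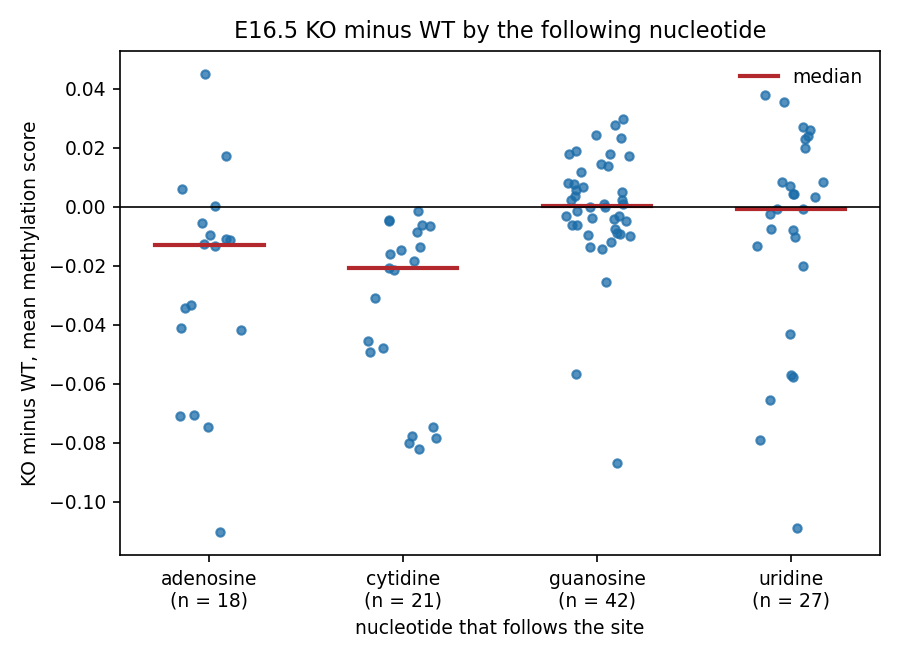
Difference in mean methylation score, E16.5 KO minus WT (vertical axis), for the listed sites by the nucleotide that follows each (horizontal axis), with medians as lines. All 21 sites before cytidine lie below 0, whereas sites before guanosine and uridine lie on both sides of it.

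The brains differed from each other in the same respect. Before cytidine, brain 1 was below the WT mean at 21 of 21 sites (median -0.125), brain 3 at 19 (median -0.0463) and brain 2 at 10 (median 0.00372). Before adenosine, brain 2 was below WT at 17 of 18 sites (median -0.134), and brains 1 and 3 at 8 each, with medians of 0.00408 and 0.00548. Before guanosine the medians of brains 1, 2 and 3 were 0.00368, 0.000895 and 0.00359. Brain 1 was the lowest of the 3 at 16 of 21 sites before cytidine, and brain 2 at 16 of 18 before adenosine.

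These deviations went with the 3' read ends. The unprotected share, which is observed over expected read ends, was compared between 3' and 5' ends on the log2 scale with a pseudocount of 1. Before cytidine, brains 1, 2 and 3 had median log2 ratios of the 3' over the 5' share of 2.90, 0.39 and 2.10. Before adenosine these ratios were 0.38, 2.27 and -0.23. At positions outside the list the medians were small, between -0.41 and 0.31 in all 3 brains and for all following nucleotides. The fraction from 3' ends was more than 0.2 below that from 5' ends in 45 of 321 pairs of a site and a brain, 17 of them brain 1 before cytidine and 10 brain 2 before adenosine. The reverse was seen in 14 pairs, at 6 sites. Such ratios were not particular to the E16.5 libraries. In adult KO brains 1, 2 and 3 the median log2 ratios at listed sites were 4.25, 0.02 and -0.16 before cytidine. Before adenosine the adult ones were 0.29, 1.33 and 1.53.

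**Figure D4:**
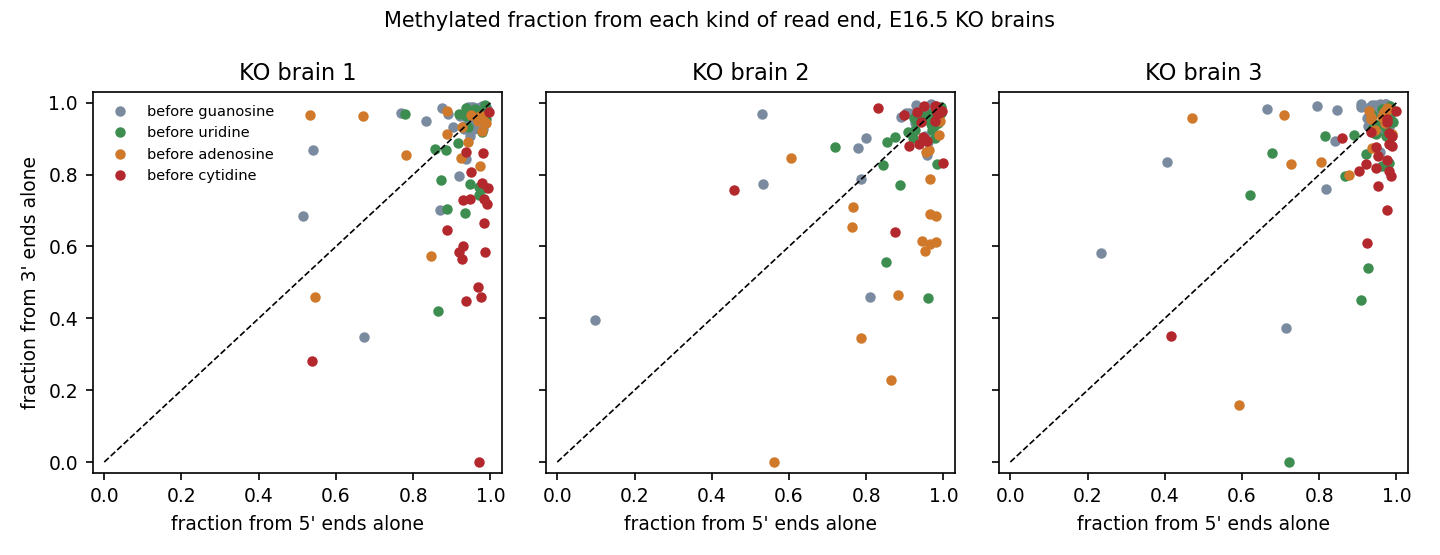
Methylated fraction from 3' ends alone (vertical axis) against 5' ends alone (horizontal axis) at the listed sites in each E16.5 KO brain, coloured by the following nucleotide, with equality as a dashed line. Sites before cytidine drop below the line in brain 1 and sites before adenosine in brain 2.

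LSU-A1313 and SSU-C174 are examples. LSU-A1313 (mouse position 1141), before cytidine, had 0.103, 0.979 and 0.883 in KO, against 0.950 ± 0.0486 in WT, while 5' ends alone gave 0.971, 0.950 and 0.985. SSU-C174 (position 174), before adenosine, had 0.905, 0.516 and 0.827 in KO against 0.899 ± 0.00419 in WT, and 0.888, 0.865 and 0.878 on 5' ends. Brain 1 was low at LSU-A1313 and brain 2 at SSU-C174, and in both cases the 5' ends of the 3 brains were close.

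The authors had adjusted some of these values. Their KO mean exceeded the mean of the 3 deposited fractions by over 0.05 at 11 sites, by up to 0.289 at LSU-A1313. Each equals the mean with brain 1 on 5' ends (SSU-U116, SSU-A1031, SSU-A1383, LSU-A1313, LSU-A3804 and LSU-C4506, all before cytidine), with brain 2 on 5' ends (SSU-C174, SSU-A668, LSU-A1511 and LSU-A3697, all before adenosine), or with brains 2 and 3 on 5' ends (LSU-U3904, before cytidine). The adjusted pairs of a site and a brain are 12 of the 45 in which 3' ends were low. At 3 sites the adjustment changed the side of WT on which KO lay. At LSU-A1511 KO minus WT was 0.00601 in the table and -0.0659 with the deposited fractions, and at LSU-A3697 it was 0.0172 and -0.0752. At SSU-A668 KO was 0.959 in the table against 0.914 in WT, while the deposited fractions of 0.962, 0.753 and 0.950 average 0.888.

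When all pairs of brains 1 and 3 before cytidine and of brain 2 before adenosine were scored on 5' ends, an alternative chosen after seeing the data, KO was lower than WT at 48 sites and higher at 60. The sites differing by over 0.05 then numbered 15, and KO was the lower at 11 of them. Since the WT brains' read ends were not analysed here, the part that the ends play in the KO minus WT differences was not tested.

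In the authors' adult table, 13 sites (12%) had a difference over 0.05 between SNORD115 KO and WT. On both lists were 3 sites. They make up 18.8% of the E16.5 list, beside the 12% of all sites that are on the adult list. Of the adult list they make up 23.1%, beside the 14.8% of all sites that are on the E16.5 list. These 3, LSU-C1868, SSU-C1391 and LSU-A4560, were lower than WT in the E16.5 KO and higher than WT in the adult KO. At SSU-A576 KO minus WT was 0.00859 at E16.5 and -0.212 in the adult.

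E16.5 and adult KO brains were compared with edgeR's quasi-likelihood test on the read ends, with the expected read ends as offset. Both age and genotype differ in this comparison and cannot be told apart. The test called 29 sites (26.9%) at an adjusted p under 0.05. Of these, 28 had a larger unprotected share, that is a lower methylated fraction, in the E16.5 KO brains, and SSU-A576 had a higher fraction. Over all sites the median log2 change of the unprotected share, E16.5 over adult, was 0.87, and each change is to be read against that shift. In an alternative, TMM library sizes over the listed sites took the place of the expected read ends. That gives a change in read ends at the sites, not in the unprotected share. Its median was -0.17, and no site was called by edgeR, with 23 at an unadjusted p under 0.05. The called sites lie in 18S (15 of 40), 28S (13 of 66) and 5.8S (1 of 2) rRNA. Of the called sites 28 precede guanosine or uridine, as do 69 of all listed sites. Before cytidine 0 of 21 sites were called, and before adenosine 1 of 18. The median SD between the E16.5 KO brains was 0.0566 before cytidine and 0.0893 before adenosine. It was 0.0104 before guanosine and 0.0161 before uridine. The part that this spread plays in where the calls lie was not tested.

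At SSU-A576 the fraction was 0.916 ± 0.0155 in E16.5 KO and 0.510 ± 0.0523 in adult KO brains (SD, n = 3 each), a log2 change of the unprotected share of -2.54 ± 0.36 (SE) with an edgeR adjusted p of 0.00446. At LSU-A4541, the largest change, it was 0.841 ± 0.00210 in E16.5 KO and 0.981 ± 0.00327 in adult KO, with a log2 change of 3.04 ± 0.39. SSU-U354 had 0.788 ± 0.00537 in E16.5 KO and 0.973 ± 0.00995 in adult KO, a log2 change of 2.98. Every E16.5 brain lay below every adult brain at LSU-A4541 and SSU-U354, which were chosen after their values were seen. LSU-C4032 had 0.745 ± 0.0931 in E16.5 KO and 0.967 ± 0.00450 in adult KO, a log2 change of 2.95.

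Some of the partly methylated sites of the embryo were among the called ones. SSU-G436 averaged 0.337 ± 0.215 in E16.5 KO and 0.874 ± 0.00944 in adult KO (log2 change 2.39, edgeR adjusted p = 0.00968). LSU-C1868 averaged 0.637 ± 0.0949 in E16.5 KO and 0.946 ± 0.00963 in adult KO (2.75, edgeR adjusted p = 0.00578). For 5.8S-U14 the means were 0.702 ± 0.0967 in E16.5 KO and 0.928 ± 0.00263 in adult KO (2.04, edgeR adjusted p = 0.0143). Without adult brain 2 the calls at SSU-G436 (edgeR adjusted p = 0.0543) and 5.8S-U14 (0.0672) were lost, and without E16.5 brain 3 that at 5.8S-U14 (0.0532). LSU-A4560 and SSU-C1272 missed the threshold, with log2 changes of 1.69 (edgeR adjusted p = 0.0583) and 0.16 (edgeR adjusted p = 0.738). LSU-A4560 passed it with 2 or 4 neighbours on each side (edgeR adjusted p = 0.0435 and 0.0433) and on 5' ends alone (0.00763). It also did without E16.5 brain 2 (edgeR adjusted p = 0.0387) and with DESeq2 (adjusted p = 0.00956), but not under the other alternatives.

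LSU-G4020 averaged 0.607 ± 0.0868 in E16.5 KO and 0.849 ± 0.0258 in adult KO (1.38, edgeR adjusted p = 0.0355), and this call was lost on leaving out any of the 6 brains (edgeR adjusted p 0.0588 to 0.107) and with the replicate block (0.0590). SSU-A159 was called as well, with 0.970 ± 0.00535 in E16.5 KO and 0.987 ± 0.00410 in adult KO (1.19, edgeR adjusted p = 0.0324), and lost on leaving out any brain but adult brain 3 (edgeR adjusted p 0.0527 to 0.104). The authors' WT means differed between E16.5 and adult in the same direction at all 29 called sites, for example with 0.319 at E16.5 and 0.762 in the adult at SSU-G436. Over all sites, E16.5 was lower than adult at 95 in KO and at 87 in WT. The number of called sites was 10 without adult brain 2, 63 with 5' ends alone and 7 with 3' ends alone. On 5' ends the log2 change at LSU-C1868 was -0.10 (edgeR adjusted p = 0.822).

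**Figure D5:**
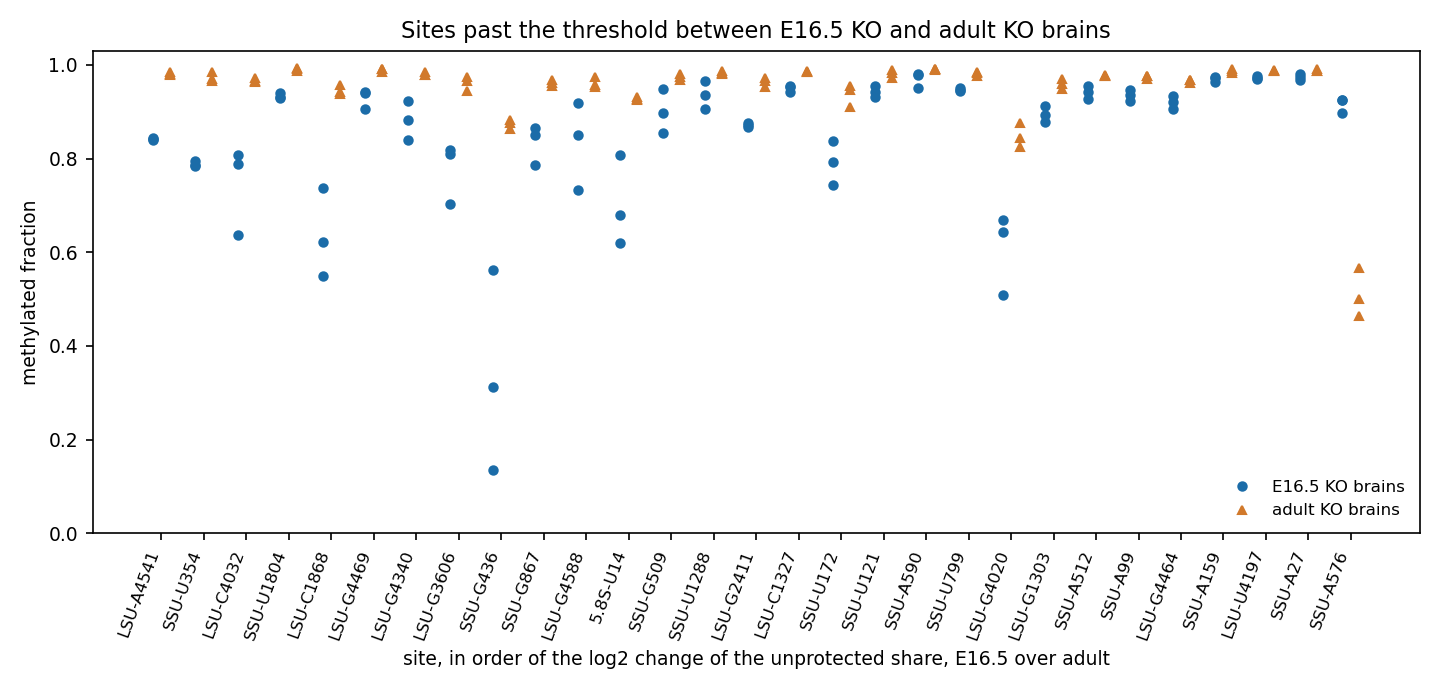
Methylated fraction (vertical axis) of the 3 E16.5 KO brains (circles) and the 3 adult KO brains (triangles) at the 29 sites past the threshold, in order of the log2 change of the unprotected share. The sets of brains do not overlap at any of the 29 sites, beside 46 of all sites (42.6%), and SSU-A576 is the only site of the 29 where the E16.5 brains are higher.

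The KO libraries held between 9621368 and 20064865 read ends, and the median number expected at a listed site was between 1675 and 3911. The median SD between the KO brains was 0.0227 over the listed sites. Outside the list, the median fraction of positions with at least 100 expected read ends was 0.0453, 0.0879 and 0.0704 in brains 1, 2 and 3.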

How the data were processed

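RiboMeth-seq tables of 3 E16.5 SNORD115/116 KO and 3 adult SNORD115 KO brains were used. The authors deposited counts of 5' and 3' read ends per rRNA position, without normalization, and the methylated fraction they computed from these counts. A further deposited table gives their mean score and SD per site for KO and WT, with some KO means corrected. The submitters list cutadapt 2.0 for trimming and Bowtie2 2.3.4.1 for mapping. A column without a heading (1 column, 6 values) was not used.

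The fraction was 1 minus observed over expected read ends. The expected number was averaged over the nearest 6 positions up- and downstream, with weights falling to 0.5. Recomputed values equalled the deposited ones within 1e-05 at 107 sites. Ends of a single kind were scored where at least 10 were expected. KO and WT were compared by size only. The quasi-likelihood test of edgeR 4.0.16 served for E16.5 KO against adult KO, with Benjamini-Hochberg adjustment over all sites. It was tested on simulated counts for that comparison (20 runs, 40 of 108 sites altered): 44% of log2 changes of 2 and 7.25% of log2 changes of 1 were recovered, and a run gave 0.45 false calls on average. The simulated sites varied independently and were altered equally in both directions, so these rates need not hold for the brains. Reads carry no molecular identifiers, and p-values measure the spread between brains only.

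The named sites were SSU-A576, LSU-C1868 and both 5.8S sites, the 10 largest KO minus WT differences, differences both over 0.05 and over 2 SDs, KO means under 0.75, sites with Gas5 guides, and adjusted means, 32 in all. Members and lists were chosen with earlier results of these data known. Guides were sought in 1507 snoRNA transcripts of GENCODE vM21. Alternatives were other neighbour settings, each kind of ends, each brain left out, a replicate block, DESeq2 1.42.0 and a minimum of 1000 expected read ends. A further one used TMM library sizes without the offset of expected read ends. R 4.3.3, Python 3.11.15, numpy 2.4.6 and matplotlib 3.10.9 were used.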

Additional observations from a re-analysis of the deposited data

Results flagged for a closer look

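At 3 named sites all E16.5 KO brains lay on one side of their WT mean and all adult KO brains on the other side of theirs, which was not tested as a difference between ages. LSU-C1868 was at -0.109 against WT in the E16.5 KO and at 0.102 in the adult KO, and LSU-G4020 at -0.0869 in the E16.5 KO and 0.0422 in the adult KO. LSU-A391 went the other way, at 0.0298 in the E16.5 KO and -0.0103 in the adult KO. The E16.5 difference turned to 0.194 at LSU-C1868 on 5' ends alone and to 0.132 at LSU-G4020 on 3' ends alone.

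Outside the listed sites, 31 of 6440 positions with at least 100 expected read ends in each brain (0.481%) had a fraction of at least 0.75 in all 3 E16.5 KO brains, and 13 of them also did in all 3 adult KO brains. Among the 13, 28S positions 4718 to 4722 lie 9 to 13 positions from the end of the molecule and had no fraction from 5' ends. Positions 133 to 135 of 5.8S rRNA, also among them, lie 21 to 23 positions from its end. Fewer than 1000 read ends were expected in a brain at 22 of the 31, which include all 13. Of the others, uridine 824 of mouse 18S rRNA had 0.841, 0.768 and 0.838, and uridine 4095 of mouse 28S rRNA had 0.779, 0.795 and 0.770, in E16.5 KO brains 1, 2 and 3. The lowest fraction from a single kind of ends at these uridines was 0.619, and uridine 824 was under 0.75 in all 3 adult KO brains (0.741, 0.736 and 0.655). The kinds of ends disagreed at guanosine 104 of 28S rRNA, where 5' ends gave between -0.117 and 0.344 in the E16.5 KO brains, and at guanosine 3615, where they gave between -0.0667 and 0.158.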

How the results depend on the processing

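The count of 16 sites with a KO minus WT difference over 0.05 was 44 with 3' ends alone, 25 with the mean of the 3 deposited fractions, 2 for differences over 0.1, 39 for differences over 0.02 (28 lower in KO), and 7 of 69 among sites before guanosine or uridine. It was 22 to 26 when a brain was left out of that mean, and 15 to 22 under the other neighbour settings and 5' ends alone, where 8 of 20 were lower in KO. Restricting the sites by the following nucleotide and scoring single brains on 5' ends were chosen after seeing the data. KO was lower at 47 sites with 5' ends alone and at 35 of the 69 before guanosine or uridine, beside 70, and leaving out a brain gave 58 to 70, beside 73 for the mean of the 3 deposited fractions. Differences over 2 SDs numbered 2 instead of 5 with SDs over n - 1, taking 3 WT brains. Of the 16 lower sites, 6 stayed lower under every alternative run. With 5' ends alone the sign turned at SSU-U1442 (0.00767), LSU-C1868 (0.194), LSU-C3820 (0.0797), LSU-A4560 (0.184), LSU-G4593 (0.154) and 5.8S-G75 (0.00259), with 3' ends alone at LSU-G4020 (0.132), SSU-U172 (0.0622), LSU-G3606 (0.140) and LSU-G4588 (0.00167), and with single brains on 5' ends at LSU-C3820 (0.0390) and LSU-G4593 (0.0764). Leaving out a brain gave -0.150 to 0.105 at LSU-A4560 (the highest without brain 3) and -0.208 to 0.0405 at LSU-G4593 (the highest without brain 2). The sites with a fraction of at least 0.75 numbered 95, and 66 at a threshold of 0.90. Between E16.5 and adult KO brains, the 29 calls became 63 with 5' ends alone, 7 with 3' ends alone, 10 to 30 when a brain was left out (10 without adult brain 2), and 40 with DESeq2. They became 0 with TMM library sizes in place of the expected read ends, where edgeR gave 23 sites at an unadjusted p under 0.05. The change at LSU-C1868 was -0.10 with 5' ends alone. With the replicate number as a block 31 sites were called, 26 of them shared. In their deviations from the group means, same-numbered brains correlated at 0.670, 0.445 and -0.183. Differently numbered brains ranged as widely, from -0.676 to 0.643. These correlations cannot show whether the numbers pair the brains. The causes of these changes were not tested. Of the 81 sites with 1000 or more expected ends in each brain, 21 were called, beside 29 of all.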

Other observations

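Listed sites within 6 nucleotides of each other enter each other's expected read ends. The cluster LSU-A2350, LSU-G2351 and LSU-C2352, named after its values were seen like the pair that follows, had KO means of 0.975, 0.994 and 0.964 in the E16.5 brains, and none differed from WT by over 0.01. LSU-U4468 and LSU-G4469, adjoining nucleotides of the peptidyl transferase centre, averaged 0.961 ± 0.0108 and 0.929 ± 0.0210 in the E16.5 KO brains (SD, n = 3) and 0.962 and 0.893 in WT. LSU-G4469 lay above the WT mean in all 3 KO brains, by less than the WT SD of 0.0783.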
